A study of Canis lupus familiaris with 6 samples.

Results

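The enzymes and receptors of eicosanoid signalling described here are 10 genes, namely ALOX15, ALOX5, ALOX5AP, LTA4H, LTC4S, PTGS1, PTGS2, TBXAS1, TBXA2R and PTGER4. All 10 were found by gene symbol among the 31512 genes of the expression table, and 8 of them were among the 9847 genes tested, those whose mean over the dogs reached 1 FPKM. FPKM is the number of fragments assigned to a gene scaled by its length and by the size of the library, so that levels of different genes can be compared. The list was selected on results of the same comparison: ALOX15 for its difference between the groups, and the others as its neighbours in the pathway. The differences between the groups are therefore given as a description, and nothing is supported with them.

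Whole blood of adult Beagle dogs was sequenced after 30 days of feeding, with 1 library per dog and 3 dogs per group. The control group ate maintenance food and a snack without CPP-Se. The CPP-Se group ate the same food and a snack that held CPP-Se, in which selenium is chelated by casein phosphopeptides. The comparison addresses what the supplement changes in the blood transcriptome.

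Eicosanoids are signalling lipids made from arachidonic acid after phospholipases release it from membranes. Lipoxygenases turn it into leukotrienes and hydroxy acids, and cyclooxygenases turn it into prostaglandins and thromboxane. In blood, 5-lipoxygenase is known from neutrophils and monocytes, thromboxane synthesis from platelets, and 15-lipoxygenase from eosinophils, from maturing red cells and from macrophages exposed to interleukin-4 or interleukin-13.

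The row of ALOX15 (ENSCAFG00000015949) covers chromosome 5 from 31882501 to 32038119 on the plus strand, in the dog genome of Ensembl release 100. It spans 155.6 kb and has a counted length of 5837 bases. Between the rows of PELP1 and RNASEK the table has 2 rows, ALOX15 and ENSCAFG00000045546, which is described as an epidermal-type arachidonate 12-lipoxygenase, lies inside the ALOX15 interval on the same strand and had 0 reads in all 6 dogs. The dog RefSeq annotation (assembly UU_Cfam_GSD_1.0) places 6 genes between PELP1 and RNASEK, 3 of them protein-coding, with ALOX15 nearest but one to PELP1 and ALOX12, the platelet-type 12-lipoxygenase, next to RNASEK. The expression table has 0 rows with the symbol ALOX12. Whether reads of ALOX12, or of the other genes placed there, were counted in the ALOX15 row was not determined. If they were, they cannot be told apart from those of ALOX15. The primers that the study designed for ALOX15 are shown because they are the gene sequence that the sources used here hold, and each has 20 bases.
ALOX15 forward primer: gccttcctaacctaccgctc
ALOX15 reverse primer: ctcacagcctcgttcgtctt
Their position within the row was not determined, and the values measured with them were not used here.

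Between 6598173 and 8067034 reads lay on genes per dog. CPP-Se replicate 2 stood apart from the other libraries: hemoglobin genes held 36.6% of its reads, against 48.7% to 55.9% in the other 5 dogs, and the library size implied by its FPKM was 1.65 times its reads on genes, against 0.882 to 1.05 times. The differences of the 10 genes that rest on it are given with and without it. Across all genes tested, 3 of 9847 (0.0305%) were called, which required a fold change of 1.5 or more together with an adjusted p below 0.05 (limma on log2(FPKM + 1) with Benjamini-Hochberg adjustment).

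Expression of ALOX15 was 5.70, 3.25 and 5.14 FPKM in control replicates 1, 2 and 3. It was 129, 4.05 and 198 FPKM in CPP-Se replicates 1, 2 and 3. CPP-Se replicates 1 and 3 were far above every control dog, and CPP-Se replicate 2 lay within the control range, so the groups overlapped. The reads behind these values were 227, 121 and 241 for the control dogs and 4835, 315 and 7070 for the CPP-Se dogs. Counting error alone considered, these were enough to tell the high libraries from the others. In order of FPKM among all genes, ALOX15 took places 4518, 6250 and 4830 of the control dogs and places 363, 5544 and 247 of the CPP-Se dogs. Only CPP-Se replicates 1 and 3 thus had ALOX15 among their most abundant genes. The group means were 4.69 ± 1.28 and 110.5 ± 98.3 FPKM (SD, n = 3 dogs per group here and below), a ratio of 23.5. On the log2(FPKM + 1) scale the difference was 3.18 with a standard error of 1.22, and it was not called (adjusted p = 0.270, limma). Without CPP-Se replicate 2 the difference was 4.85 with a standard error of 0.29, and it was called (adjusted p = 0.011, limma). Without CPP-Se replicate 1 the difference was 2.50, and without CPP-Se replicate 3 it was 2.20. Of all settings, ALOX15 was called only without CPP-Se replicate 2. With each of the remaining dogs left out in turn, its adjusted p was 0.389 to 0.523 (limma). The alternative limma settings with all 6 dogs gave 0.208 to 0.442. With limma-voom on recovered reads the adjusted p was 0.180, and with sample quality weights added it was 0.060. The genes on either side did not share the pattern. PELP1 had 117, 90 and 114 reads in control dogs against 181, 355 and 103 in CPP-Se dogs, and RNASEK had 637, 677 and 929 against 586, 1052 and 541.

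**Figure D1:**
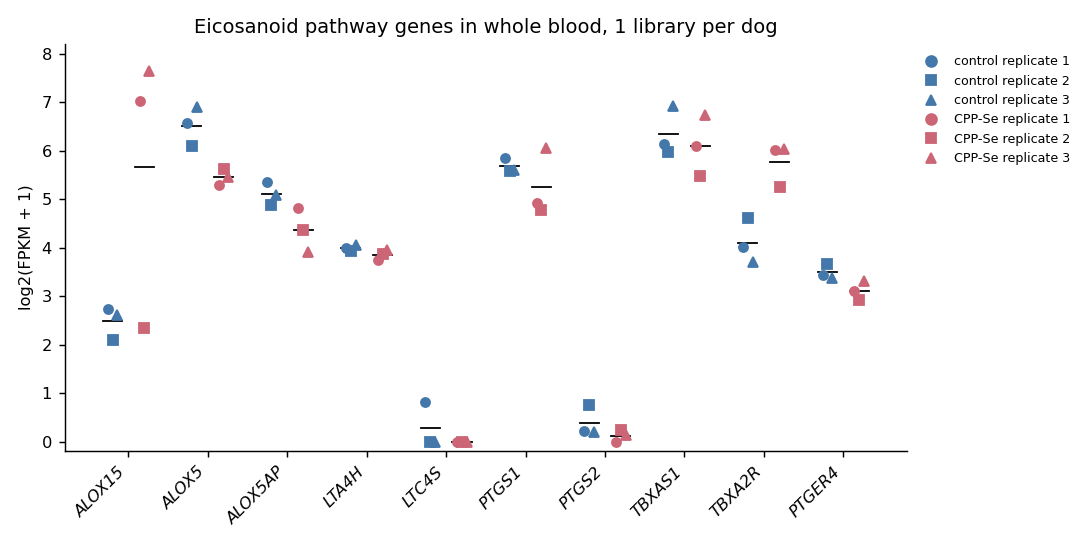
Expression of the 10 genes as log2(FPKM + 1) in each dog, with blue for the 3 control dogs, red for the 3 CPP-Se dogs, a marker shape per replicate number and a black bar for the group mean. ALOX15 is high in CPP-Se replicates 1 and 3 only, TBXA2R is higher in all 3 CPP-Se dogs, ALOX5, ALOX5AP and PTGER4 are lower in all 3, and LTC4S and PTGS2 are close to 0.

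ALOX5 (ENSCAFG00000006948, chromosome 28, 2170920 to 2219609) encodes 5-lipoxygenase, which makes leukotriene A4. Its expression was 93.4, 67.2 and 118 FPKM in the control dogs and 38.1, 48.3 and 42.7 FPKM in the CPP-Se dogs. All 3 CPP-Se dogs lay below all 3 control dogs. The means were 92.8 ± 25.2 and 43.0 ± 5.11 FPKM, and the log2 difference was -1.06 with a standard error of 0.24 (adjusted p = 0.144, limma).

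ALOX5AP (ENSCAFG00000006585, chromosome 25, 9320864 to 9351836) encodes the 5-lipoxygenase-activating protein, which hands arachidonic acid to 5-lipoxygenase. It was expressed at 39.6, 28.4 and 33.0 FPKM in the control dogs and at 27.1, 19.5 and 14.0 FPKM in the CPP-Se dogs. Here too the groups did not overlap, although the highest CPP-Se dog was close to the lowest control dog. The log2 difference was -0.75 with a standard error of 0.26 (adjusted p = 0.250, limma). The separation of ALOX5 and ALOX5AP depended on the scaling: with all libraries set to a common sum without hemoglobin genes, ALOX5 reached 62.8 in CPP-Se replicate 2 against 61.9 in control replicate 2, ALOX5AP reached 26.6 in CPP-Se replicate 1 against 26.2 in control replicate 2, and the groups overlapped for both genes. Without CPP-Se replicate 2, whose scaling factor of 0.770 was the lowest, ALOX5 was at 38.9 at most in the CPP-Se dogs under that scaling and stayed apart. The difference stayed negative for both genes under that scaling.

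LTA4H (ENSCAFG00000006440, chromosome 15, 35795979 to 35830844) encodes leukotriene A4 hydrolase, which makes leukotriene B4. Its expression of 14.9, 14.2 and 15.7 FPKM in the control dogs and 12.4, 13.6 and 14.4 FPKM in the CPP-Se dogs overlapped between the groups. With all 6 dogs its difference was the smallest of the 8 genes, with a log2 value of -0.14 and a standard error of 0.16 (adjusted p = 0.708, limma). Without CPP-Se replicate 2 that of TBXAS1 was smaller, at 0.066 against -0.150 for LTA4H. LTC4S (ENSCAFG00000000354, chromosome 11, 1894380 to 1897752) encodes the synthase of leukotriene C4. It had 7 reads in control replicate 1 and 0 reads in each of the other 5 dogs, where a count of 0 allows up to 3 reads, counting error alone considered. The gene lies inside the interval of MGAT4B on the opposite strand, so even the origin of these 7 reads is uncertain. LTC4S was too low to be tested.

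PTGS1 (ENSCAFG00000020263, chromosome 9, 60195124 to 60216819), the cyclooxygenase known from resting cells and platelets, was expressed at 56.3, 47.0 and 47.4 FPKM in the control dogs. The CPP-Se dogs had 29.2, 26.6 and 65.3 FPKM, so that 2 of them lay below the control range and 1 above it. The log2 difference was -0.42 with a standard error of 0.33 (adjusted p = 0.581, limma). Its size rested on single dogs: it was -0.26, -0.19 and -0.82 without CPP-Se replicate 1, 2 and 3. PTGS2 (ENSCAFG00000013762, chromosome 7, 19668082 to 19674903), the inducible cyclooxygenase, had 4, 15 and 4 reads in control dogs against 0, 8 and 2 reads in CPP-Se dogs. With at most 0.678 FPKM in any dog it was not tested, and a difference was not detectable at this depth.

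TBXAS1 (ENSCAFG00000004011, chromosome 16, 8870284 to 9023462) encodes thromboxane A synthase. Its expression was 69.0, 62.1 and 120.2 FPKM in the control dogs and 67.0, 43.8 and 105 FPKM in the CPP-Se dogs, and replicate 3 was the highest dog of both groups. The groups overlapped, with a log2 difference of -0.24 and a standard error of 0.37 (adjusted p = 0.792, limma). Without CPP-Se replicate 2 the difference was 0.07, so its sign was not stable. The summed expression of 9 platelet genes, ITGA2B and PPBP among them, also peaked in the replicates numbered 3: it was 960, 906 and 1880.4 FPKM in the control dogs and 1133, 626 and 2180.1 FPKM in the CPP-Se dogs. The part of platelet RNA in the values of TBXAS1 and PTGS1 was not tested.

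TBXA2R (ENSCAFG00000019175, chromosome 20, 55824410 to 55828980) encodes the thromboxane A2 receptor. Its expression was 15.0, 23.4 and 11.9 FPKM in the control dogs and 63.4, 36.9 and 64.9 FPKM in the CPP-Se dogs. Every CPP-Se dog lay above every control dog, CPP-Se replicate 2 included, although it was again the lowest of its group. The means were 16.8 ± 5.92 and 55.1 ± 15.8 FPKM, a ratio of 3.28. The log2 difference was 1.66 with a standard error of 0.31 (adjusted p = 0.138, limma). The receptor was set against the synthase of its ligand: TBXA2R stood at 0.0993 to 0.377 times the FPKM of TBXAS1 in the control dogs and at 0.618 to 0.946 times in the CPP-Se dogs, without overlap. Since TBXAS1 overlapped between the groups, this separation is not a result apart from that of TBXA2R.

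PTGER4 (ENSCAFG00000018619, chromosome 4, 68663364 to 68676358) encodes EP4, a receptor of prostaglandin E2. It was expressed at 9.76, 11.7 and 9.40 FPKM in the control dogs and at 7.55, 6.60 and 8.91 FPKM in the CPP-Se dogs. The CPP-Se dogs lay below the control dogs by a narrow margin. The log2 difference was -0.38 with a standard error of 0.19 (adjusted p = 0.363, limma).

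Of the 8 genes tested, 0 were called by limma on log2(FPKM + 1), where the background of all genes called was 0.0305%. Before adjustment, p was below 0.05 for 4 of the 8, ALOX15 and TBXA2R with the CPP-Se group higher and ALOX5 and ALOX5AP with it lower, against 16% of all genes. The groups did not overlap in 1 of the 8 with the CPP-Se group higher (TBXA2R) and in 3 with it lower (ALOX5, ALOX5AP and PTGER4), against 10.4% and 12.6% of all genes. With limma-voom on the recovered reads 0 were called, and with sample quality weights added 2 were called, against 1.58% of all genes. These were ALOX5 (log2 difference -1.12, adjusted p = 0.045) and TBXA2R (1.80, adjusted p = 0.040) in limma-voom. As the genes were selected with this comparison known, nothing is read from these counts. The median log2 difference was -0.31 over the 8 genes and -0.0043 over all genes tested.

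**Figure D2:**
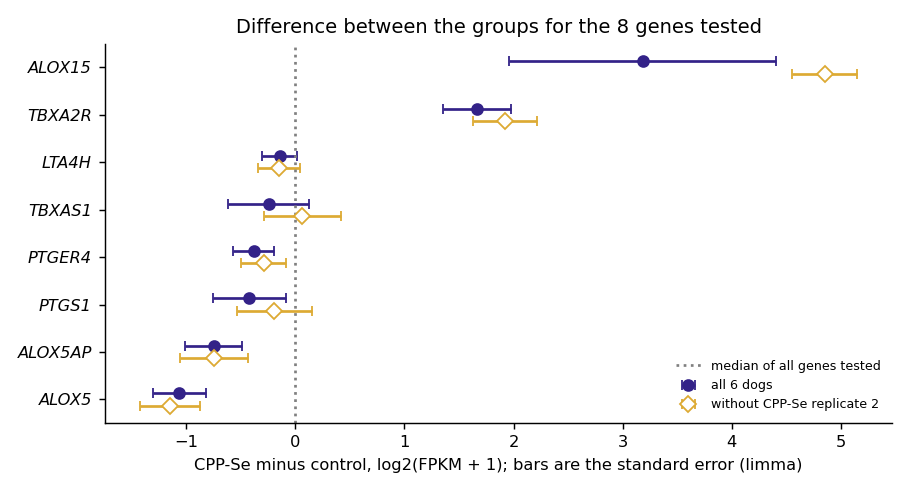
Difference between the groups (CPP-Se minus control, in log2(FPKM + 1)) for the 8 genes tested, with the standard error from limma as bars, for all 6 dogs (filled circles) and without CPP-Se replicate 2 (open diamonds); the dotted line is the median of all genes tested. ALOX15 moves from 3.18 to 4.85 with a much smaller standard error, TBXAS1 crosses 0, and the other 6 genes keep their sign.

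The order of the levels differed between the groups. In the control group ALOX5 (92.8 FPKM) and TBXAS1 (83.7 FPKM) were highest and their ranges overlapped, followed by PTGS1, ALOX5AP, and then TBXA2R and LTA4H, whose ranges overlapped. PTGER4 and ALOX15 (4.69 FPKM) came next, each apart from its neighbours, and PTGS2 and LTC4S were last. In the CPP-Se group ALOX15 had the highest mean, followed by TBXAS1, TBXA2R, ALOX5, PTGS1, ALOX5AP and LTA4H, and in each pair of neighbours in this stretch the ranges overlapped. Within a dog, ALOX15 made up 5.75%, 4.61% and 4.18% of the summed FPKM of ALOX15 and ALOX5 in control dogs, against 77.3%, 7.73% and 82.3% in CPP-Se dogs. The ratio of ALOX5 to ALOX5AP, which act together, was 2.36, 2.37 and 3.56 in control dogs against 1.41, 2.48 and 3.06 in CPP-Se dogs, and overlapped between the groups.

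Other genes of the pathway were taken from a list of 77 in 7 roles, of which 67 were found in the table and 35 were tested. By limma 0 of the 35 were called (adjusted p between 0.170 and 0.960), and the unadjusted p was below 0.05 for 9 of them, with the CPP-Se group higher in 4 and lower in 5, against 16% of all genes. With limma-voom, quality weights included, 0 were called. The groups did not overlap in 4 genes with the CPP-Se group higher and in 7 with it lower, against 10.4% and 12.6% of all genes, and the median log2 difference was 0.09. These counts depended on the scaling. With a common sum without hemoglobin genes, a comparison added for these lists after seeing the data, the groups did not overlap in 7 genes with the CPP-Se group higher and in 2 with it lower, against 13.4% and 4.84% of all genes. The 4 higher genes, PLA2G15, CYSLTR1, PRXL2B and IL2RG, and the lower genes PLA2G12A and PTGR1 stayed apart, DAGLB, PLA2G7, MGST1, LTB4R and STAT6 then overlapped, and PTGDR, PTGDR2 and GPR18 were then apart and higher.

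In the release of arachidonic acid, PLA2G12A, a secreted phospholipase A2, was at 7.28, 7.58 and 17.2 FPKM in the control dogs and at 5.61, 3.62 and 4.29 FPKM in the CPP-Se dogs (log2 difference -0.999). DAGLB, a diacylglycerol lipase, was at 27.2, 23.2 and 30.4 against 20.7 FPKM at most (-0.60). PLA2G15, the lysosomal phospholipase A2, differed the other way, with 2.11, 1.18 and 0.938 FPKM against 2.81, 2.56 and 3.05 FPKM (0.69). In the deposited FPKM, the groups did not overlap in these 3 genes. FAAH, which breaks down anandamide, and PNPLA2, the most abundant gene of this role and a triglyceride lipase, overlapped between the groups (0.44 and -0.53). PLA2G4A, the cytosolic phospholipase A2 best known for supplying arachidonic acid, was named after its values were seen: it was at 0.850, 1.15 and 1.54 FPKM in the control dogs and at 0.604, 0.841 and 0.506 FPKM in the CPP-Se dogs, under the limit for testing.

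Downstream of ALOX5, LTB4R, the high-affinity receptor of leukotriene B4, was at 123, 76.9 and 125 FPKM in the control dogs and at 58.4, 73.7 and 48.8 FPKM in the CPP-Se dogs. All CPP-Se dogs lay below all control dogs, with a log2 difference of -0.82 and a standard error of 0.26 (adjusted p = 0.212, limma). As for ALOX5 and ALOX5AP, this separation was lost with a common sum without hemoglobin genes, where CPP-Se replicate 2 had 95.8 against 70.9 in control replicate 2, and the other CPP-Se dogs had 57.4 and 44.5. MGST1, a microsomal glutathione transferase of the same protein family as ALOX5AP, was at 27.2, 26.2 and 15.8 against 8.23, 12.4 and 11.6 FPKM (-1.01). CYSLTR1, a receptor of the cysteinyl leukotrienes, lay in the opposite direction at a low level. It was at 0.573, 0.766 and 1.46 FPKM in the control dogs and at 3.66, 2.13 and 2.24 FPKM in the CPP-Se dogs, with a log2 difference of 0.93 and a standard error of 0.28 (adjusted p = 0.197, limma). The groups overlapped for GGT1, which trims leukotriene C4 (0.21). COTL1, an actin-binding partner of 5-lipoxygenase, was the most abundant gene of the list, at 1702.8 to 2105 FPKM in the control dogs and 1603 to 1998.8 FPKM in the CPP-Se dogs. The other lipoxygenases in the table, ALOX12B, ALOX15B and ALOXE3, were at 0 to 0.178 FPKM.

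Among prostanoid enzymes, HPGD, the dehydrogenase that starts the breakdown of prostaglandins, had the largest difference of the list. It was at 0.713, 0.191 and 2.27 FPKM in the control dogs and at 8.93, 1.09 and 6.36 FPKM in the CPP-Se dogs. As for ALOX15, CPP-Se replicates 1 and 3 were the high dogs and CPP-Se replicate 2 lay in the control range (log2 difference 1.51), so the overlap of the groups rested on that dog. PRXL2B, a prostaglandin F synthase, was at 0.262, 1.12 and 0.964 against 2.42, 2.55 and 3.02 FPKM, without overlap (1.07). Both receptors of prostaglandin D2 overlapped between the groups in the deposited FPKM: PTGDR2 was at 5.36, 10.7 and 6.51 against 32.1, 8.54 and 13.3 FPKM (1.01), and PTGDR at 4.22, 4.51 and 1.04 against 7.98, 3.97 and 8.80 FPKM (0.97). PTGIR, the prostacyclin receptor, overlapped as well (-0.44). The prostaglandin D synthases PTGDS and HPGDS and the prostacyclin synthase PTGIS were at 0 in all 6 dogs.

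In the epoxide and pro-resolving role GPR18, EPHX1 and ANXA1 overlapped between the groups (0.75, 0.52 and 0.14). In the interleukin-4 and interleukin-13 arm, which is known to induce ALOX15, the ligands were barely seen. IL4 was above 0 in CPP-Se replicate 3 alone (0.588 FPKM, 2 reads). IL13 reached 0.263 FPKM there (2 reads) and 0.0604 FPKM in CPP-Se replicate 2 (1 read). Counts this low cannot be told from 0, since a count of 0 allows up to 3 reads. IL2RG, the common gamma chain, was at 54.9, 54.0 and 42.8 FPKM in the control dogs and at 63.5, 60.9 and 77.1 FPKM in the CPP-Se dogs, above them without overlap (0.40). STAT6, the factor that carries the signal to the nucleus, was at 35.8, 34.0 and 38.0 against 32.4, 30.0 and 25.0 FPKM, below them without overlap (-0.30). IL13RA1 and JAK1 overlapped (-0.54 and 0.14). In addition, PLA2G7, the platelet-activating factor acetylhydrolase (-0.50), and PTGR1, which inactivates leukotriene B4 (-0.41), were lower in the CPP-Se group without overlap, and both were named after their values were seen.

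**Figure D3:**
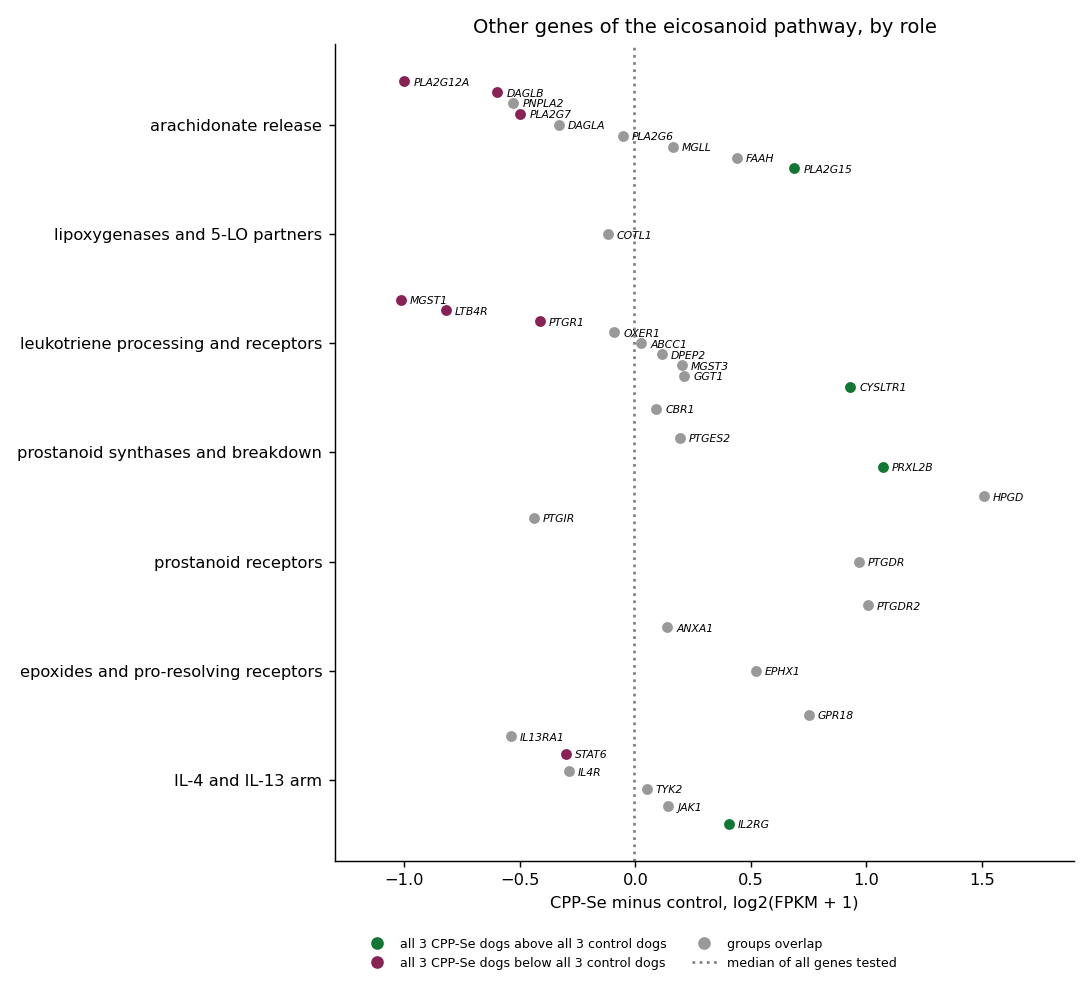
Difference between the groups (CPP-Se minus control, in log2(FPKM + 1)) for the 35 other pathway genes tested, by role, with green for genes in which all 3 CPP-Se dogs lay above all 3 control dogs, dark red for the reverse and grey for overlapping groups, all in the deposited FPKM. MGST1, PLA2G12A and LTB4R lie furthest to the left, and HPGD and PRXL2B furthest to the right.

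The genes whose profile over the 6 dogs was most like that of ALOX15 were ranked by the Pearson correlation of log2(FPKM + 1) among 8135 genes with a symbol. The first 5 were CPA3 (r = 0.997), cfa-let-7d (0.993), BPIFB3 (0.990), ARFIP2 (0.986) and CELA1 (0.982), and r was over 0.9 for 79 genes. The points share library and depth, and because CPP-Se replicates 1 and 3 lie apart from the other 4 dogs, these values rest on 2 dogs and were not tested. CPA3, a carboxypeptidase of mast cells and basophils, was at 0.338, 0.226 and 0.502 FPKM in the control dogs and at 6.71, 0.173 and 8.19 FPKM in the CPP-Se dogs. Like ALOX15 it was high in CPP-Se replicates 1 and 3, at a level far below it, while the order of the other 4 dogs differed between the genes (Spearman rho 0.886 over the 6 dogs). BPIFB3 was at 0.334, 0.0892 and 0.213 against 3.38, 0.0427 and 2.98 FPKM, and CELA1, an elastase, at 0.823, 0.880 and 0.437 against 5.37, 0.790 and 7.11 FPKM. The row of cfa-let-7d rests on 6 and 11 reads in CPP-Se replicates 1 and 3 and 0 reads in the other dogs, and ARFIP2 varied between 1.28 and 2.41 FPKM, so that a high correlation here included genes with few reads and genes that hardly varied.

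Marker lists of blood cells were read in the same dogs. In whole blood, fewer cells of a type and less RNA per cell cannot be told apart. The summed expression of 8 basophil and mast cell genes was 8.29, 5.89 and 15.1 FPKM in the control dogs and 42.1, 7.05 and 33.3 FPKM in the CPP-Se dogs, high in the same 2 dogs as ALOX15. In this list, CPA3, GATA2 and FCER1A were high in CPP-Se replicates 1 and 3 and below the control range in CPP-Se replicate 2, CMA1 was higher in all 3 CPP-Se dogs, MS4A2 overlapped between the groups, and HDC, KIT and ENPP3 did not exceed 0.267 FPKM. The 7 eosinophil genes summed to 7.85, 7.62 and 10.4 FPKM in the control dogs and to 33.2, 4.31 and 8.56 FPKM in the CPP-Se dogs, so the sum was high in CPP-Se replicate 1 but not in CPP-Se replicate 3. CCR3, at 21.3, 2.91 and 4.83 FPKM in the CPP-Se dogs against 3.79, 4.49 and 6.20 FPKM, had the highest level of the list in each dog. ADORA3 was at 7.51, 0.515 and 2.14 FPKM against 1.01, 1.66 and 1.71 FPKM, PRG2 at 1.54, 0 and 0.689 FPKM against 0 in the control dogs, and EPX at 0.884, 0.106 and 0.385 FPKM against 0, 0.148 and 0.0586 FPKM. In FPKM these 3 genes were above the control dogs in CPP-Se replicates 1 and 3, but in replicate 3 this rested on few reads. There ADORA3 had 21 reads against 22 in control replicate 3. PRG2 had 3 reads against 0 in the control dogs, and EPX had 5 against at most 2. PRG3 was at 0 in all dogs, and IL5RA was at 1.74, 0.782 and 0.455 FPKM in the CPP-Se dogs against 3.06, 1.20 and 2.42 FPKM. The 8 red cell genes summed to 1307 to 3464 FPKM and 2258 to 3340.2 FPKM, which overlapped. ANK1 and RHAG, 2 of these 8, were higher in all 3 CPP-Se dogs without overlap, against 10.4% of all genes, and the median log2 difference of the 8 was 0.66. The part of these cell types in the values of ALOX15 was not tested.

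Monocyte genes lay in the direction of ALOX5, ALOX5AP and LTB4R. The 10 monocyte genes summed to 948 to 1079.8 FPKM in the control dogs and to 444 to 528 FPKM in the CPP-Se dogs, and 8 of the 10, CD14 and LYZ among them, were lower in all 3 CPP-Se dogs, against 12.6% of all genes. CX3CR1 and CD68 overlapped. The 10 neutrophil genes summed to 2712 to 3991 FPKM and to 2230.4 to 2779 FPKM, which overlapped. Without MMP9, which was at 729 and 540.0 FPKM in CPP-Se replicates 1 and 3, the other 9 summed to 2626 to 3895 FPKM and to 1690.5 to 2375 FPKM, without overlap in the deposited FPKM. MMP9 was left out after its values were seen, and with a common sum without hemoglobin genes these 9 genes overlapped between the groups, at 2602 to 3662.5 and 1541 to 3086. Of the 8 neutrophil genes tested 7 had a negative difference (median -0.71). Of the 8, 3 were lower without overlap, CSF3R, CXCR2 and LTF, against 12.6% of all genes. With a common sum without hemoglobin genes, 5 of the 10 monocyte genes, CD14 and LYZ included, and 1 of the 8 neutrophil genes, CXCR2, were lower without overlap, against 4.84% of all genes, and the monocyte sums were 939 to 1015 and 405 to 687. Lymphocyte genes lay in the direction of TBXA2R. The 7 T cell genes summed to 75.3 to 135 FPKM against 155 to 212 FPKM, the 7 natural killer or cytotoxic genes to 16.4 to 30.5 FPKM against 38.7 to 58.4 FPKM, and the 7 B cell genes to 273 to 392 FPKM against 414 to 459 FPKM, all without overlap. Higher without overlap were 4 of the 7 T cell genes, 2 of the 6 cytotoxic genes tested and 4 of the 7 B cell genes. The share of all genes was 10.4%. With a common sum without hemoglobin genes these counts were 5, 3 and 5, against 13.4% of all genes. CD79A, at 233 to 385 FPKM the most abundant B cell gene, overlapped in the deposited FPKM. So did CD3G, CD2, CD28, GZMA, GZMB, KLRD1, CD8A, PAX5 and BLK. By limma, 0 of the 62 marker genes tested were called, and the unadjusted p was below 0.05 for 15 with the CPP-Se group higher and 13 with it lower, against 16% of all genes in either direction. How much of the values of ALOX5, ALOX5AP, LTB4R and TBXA2R goes with these cell types was not tested.

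**Figure D4:**
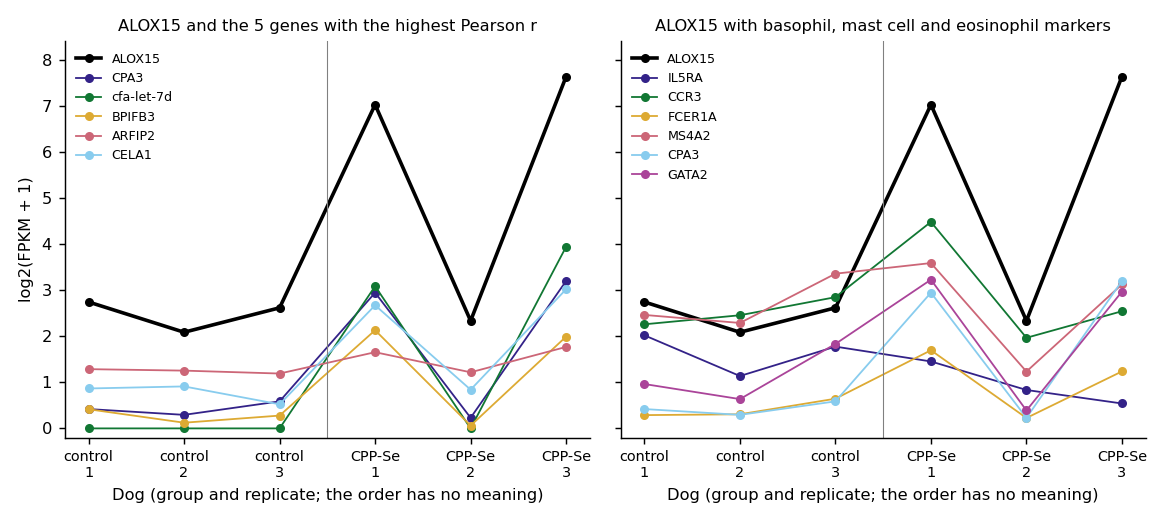
Expression in each dog, as log2(FPKM + 1), of ALOX15 (thick black line) with the 5 genes of the highest correlation (left) and with 6 markers of basophils, mast cells and eosinophils (right); lines only join the values of a gene, since the dogs have no order. ALOX15, CPA3, BPIFB3 and CELA1 are high in CPP-Se replicates 1 and 3 and low in the other 4 dogs. GATA2 and FCER1A follow the same dogs. IL5RA, MS4A2 and CCR3 do not, as each lies below the highest control dog in CPP-Se replicate 3.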

How the data were processed

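The authors prepared poly-A libraries from whole blood and sequenced paired ends. The submitters' processing notes name fastp 0.19.7, HISAT2 2.0.5 and featureCounts 1.5.0-p3. The study's methods name HISAT2, the Ensembl release 100 dog genome and StringTie, and do not name fastp or featureCounts, so the counting tool behind the values is not settled. The deposited values are FPKM, computed by the authors. Their library size, the use of strand and the handling of shared reads are not given in the sources used here.

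Dogs were grouped by library name. FPKM times gene length, divided by the value of 1 read inferred for each library from its smallest step, gave whole numbers for 100% of genes (within 0.01), which were taken as reads. The library size this implies was 0.882 to 1.65 times the reads on genes. Genes whose mean reached 1 FPKM were fitted on log2(FPKM + 1) with limma 3.58.1 (trend, two-sided, Benjamini-Hochberg over 9847 genes) in R 4.3.3, without pairing. The pseudocount of 1 understates differences of low genes. An exact permutation of 3 against 3 dogs cannot give a two-sided p under 0.1, so none was run.

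The members and lists were chosen with earlier results of these data known. List genes without a symbol in the table were matched by full protein name (8 genes), after the files were seen. Genes were named by role: the members, the largest differences (at most 2 per direction) and the highest mean in each role, the neighbours of ALOX15, the 5 genes most like it, and markers. Alternatives were another pseudocount, other filters, scalings and eBayes settings, limma-voom, the replicate number as a block, and each dog left out. The test was tried on simulated data.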

Additional observations from a re-analysis of the deposited data

How the results depend on the processing

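Over all genes, 3 were called. The number was 0 with a pseudocount of 0.1 (limma, with 1537 genes at an unadjusted p below 0.05), 0 with every gene above 0 tested (limma, 1857 such genes), 1 with a minimum mean of 5 FPKM, 1 with limma-voom on recovered reads, 1 with the replicate block and 156 with sample quality weights, and 0 to 14 with a dog left out, the 14 being without CPP-Se replicate 2. Of the eicosanoid genes, 0 were called, but 2 with quality weights, and 0 to 1 with a dog left out (ALOX15, without CPP-Se replicate 2). The groups did not overlap in 4 of them, in 2 with a common sum without hemoglobin genes and in 4 to 6 with a dog left out, against 23.0%, 18.3% and 29.7% to 36.3% of all genes. That scaling moved the median log2 difference of all genes to 0.12. With a dog left out, the log2 difference of TBXAS1 ranged from -0.56 to 0.066, turning positive without control replicate 3 (0.048) and without CPP-Se replicate 2 (0.066), and the cause was not tested. The other pathway genes were called 0 times in each setting. The labels do not say that the replicate numbers pair the dogs. Correlations of same-numbered deviations were between -0.090 and 0.016, against -0.078 to 0.112 for the other pairs, and cannot show whether dogs were paired. The replicate block changed no call of an eicosanoid gene. Precision is limited by 3 dogs per group and, for LTC4S and PTGS2, by at most 15 reads.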

Other observations

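Some genes outside the pathway had the dog pattern of ALOX15 and were chosen after their values were seen. GALNT6, which adds the first sugar of mucin-type chains (r = 0.966, place 13), was at 6.68, 13.2 and 9.06 FPKM in the control dogs and at 71.1, 8.06 and 126 FPKM in the CPP-Se dogs. MMP9, a gelatinase known from neutrophil granules, was at 96.3, 68.3 and 86.1 against 729, 23.7 and 540.0 FPKM (r = 0.928, place 43), in the direction opposite to the neutrophil genes CSF3R and CXCR2 in CPP-Se replicates 1 and 3. IL3RA, the receptor chain for interleukin-3, was at 1.07, 0.202 and 1.39 against 6.65, 0.0322 and 7.10 FPKM (r = 0.956, place 20). GATA2, a transcription factor of mast cells and basophils, was at 0.949, 0.554 and 2.56 against 8.37, 0.309 and 6.83 FPKM (r = 0.923, place 51). In all 4 genes CPP-Se replicates 1 and 3 lay above the control dogs and CPP-Se replicate 2 in or below their range, and the correlations rest on those 2 dogs.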
